A study of Homo sapiens with 3 samples.

Results

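Divergent promoters bound by RBPJ were defined as RBPJ peaks with a summit within 1000 bp of a protein-coding transcription start site (TSS) on the plus strand of one gene and of a protein-coding TSS on the minus strand of another gene. Of 2926 RBPJ peaks, 233 met this definition (7.96%, 95% Wilson interval 7.04 to 9.0%), at 193 gene pairs. A further 1643 RBPJ peaks had a summit within 1000 bp of protein-coding TSS on 1 strand only and served as the comparison, called single-direction promoter peaks. The divergent peaks were thus 12.4% (11 to 14%) of 1876 promoter peaks. Chromatin immunoprecipitation and sequencing (ChIP-seq) had been done in MDA-MB-231, a human breast cancer cell line that lacks hormone receptors, grown in RPMI1640 with serum and with no treatment or genotype named in the labels. One antibody was against RBPJ and the other against L3MBTL3, with 1 library each, and an input DNA library was not analysed here. Depth was 30 to 40 M (megareads, aligned) in each, per the labels. The L3MBTL3 list held 444 peaks. Since each antibody had a single library, replicate error is unknown: the tests below are over peaks or gene pairs of these libraries, and neighbouring peaks are not independent of each other.

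RBPJ (also called CBF1 or CSL) is the DNA-binding protein of the Notch pathway. It activates genes when bound by the cleaved Notch receptor and represses them when bound by corepressors, and L3MBTL3, a reader of methylated lysine, is one of its repressive partners. A divergent, or bidirectional, promoter is a stretch of DNA from which a pair of genes is transcribed in opposite directions, usually from a shared CpG island. Such promoters are common among housekeeping genes, and words bound by ETS factors, NRF1, NFY, YY1 and ZNF143 are known from them.

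RBPJ binds the words CGTGGGAA and TGTGGGAA with high affinity, and TGGGAA is the core that both contain. The following 26-base sequences (hg19, written 5′ to 3′ on the strand that carries the word, with the word in capitals) are those of the divergent peaks with the highest fold enrichment among peaks with a high-affinity word, and of RECQL5/SAP30BP, as a further example of TGTGGGAA. Gene pairs are written with the minus-strand gene first.
HES4/ISG15 (chr1:935539-935564, minus strand): tggggcgagTGTGGGAAagaatgcgg
TMX3/CCDC102B (chr18:66382487-66382512, plus strand): gcccaggagCGTGGGAAccctgctta
PIGY/HERC3 (chr4:89445021-89445046, minus strand): gatgacgccCGTGGGAAaagcagtcg
NGLY1/OXSM (chr3:25831511-25831536, plus strand): ggacgcgtgCGTGGGAAagcgcatga
OSGEP/APEX1 (chr14:20923805-20923830, plus strand): atgccgaagCGTGGGAAaaagggagc
RECQL5/SAP30BP (chr17:73663432-73663457, plus strand): cgcccgggcTGTGGGAAtaagatggc
In HES4/ISG15 and RECQL5/SAP30BP the word was TGTGGGAA, and in the other 4 it was CGTGGGAA. Of 15 divergent peaks with a high-affinity word within 100 bp of the summit, 12 had CGTGGGAA and 3 TGTGGGAA. The distance from summit to word had a median of 34 bp, and 10 of the 15 words lay within 50 bp. The limit of 100 bp bounds these distances. A word counted in this way could lie outside the called peak, as at RECQL5/SAP30BP (peak chr17:73663315-73663438). At single-direction peaks 60 of 91 words were CGTGGGAA and 31 TGTGGGAA, the median distance was 42 bp and 55 lay within 50 bp.

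A second set of sequences is shown because it carries the difference between divergent and single-direction peaks described further on. Capitals mark ACTACAA, a word of the zinc finger factor ZNF143.
TRAK2/STRADB (chr2:202316340-202316365, minus strand): ggaaACTACAAttcccagcaggtctt
CENPT/NUTF2 (chr16:67880710-67880735, minus strand): gaaaACTACAAttcccggcgtgctat
TMEM127/CIAO1 (chr2:96931888-96931913, plus strand): agcgACTACAActcccagagggtatg
CCND3/TAF8 (chr6:42018226-42018251, plus strand): cgcgACTACAAgtcccatcgcgcccc
TOP3A/SMCR8 (chr17:18218357-18218382, plus strand): tggaACTACAActcccagactgtccc
SIRT2/NFKBIB (chr19:39390307-39390332, plus strand): cagaACTACAActctcagcagacatt
In the first 5, the word was followed by 1 base and then TCCC, as it was at 8 of the 15 ACTACAA sites of the divergent peaks. At single-direction peaks it was so at 11 of 24 ACTACAA sites, so the difference lies in the word and not in TCCC. At TRAK2/STRADB the word ran directly into TTCCCA, the reverse complement of the RBPJ core, and this was the case at 1 of the 15 sites. SIRT2/NFKBIB is an example without TCCC.

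The 3 stretches below show how RBPJ summits sat between TSS with no high-affinity word nearby. They run from one TSS to the other, or 100 bases to each side of the summit where the gap is longer, and lie outside annotated exons. Capitals mark TGGGAA or its reverse complement, where present.
CCDC96/TADA2B (chr4:7044854-7045054, plus strand): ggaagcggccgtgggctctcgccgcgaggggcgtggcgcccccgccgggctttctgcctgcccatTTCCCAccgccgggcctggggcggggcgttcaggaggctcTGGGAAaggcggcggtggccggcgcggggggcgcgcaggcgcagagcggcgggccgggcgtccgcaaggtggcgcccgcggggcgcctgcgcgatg
SLBP/TACC3 (chr4:1714316-1714516, plus strand): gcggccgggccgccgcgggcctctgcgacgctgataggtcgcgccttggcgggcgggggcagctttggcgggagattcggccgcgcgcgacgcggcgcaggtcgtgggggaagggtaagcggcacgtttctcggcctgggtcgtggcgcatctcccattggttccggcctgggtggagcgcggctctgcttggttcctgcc
MAP4K1/EIF3K (chr19:39109523-39109721, plus strand): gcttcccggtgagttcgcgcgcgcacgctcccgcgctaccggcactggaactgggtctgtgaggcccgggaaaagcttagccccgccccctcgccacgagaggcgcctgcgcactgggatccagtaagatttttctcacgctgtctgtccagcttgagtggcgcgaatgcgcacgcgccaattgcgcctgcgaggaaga
CCDC96/TADA2B had the core word on each strand once, and the other 2 stretches had none. Their GC content was 81.1% at CCDC96/TADA2B, 73.6% at SLBP/TACC3 and 65.3% at MAP4K1/EIF3K, with 32, 29 and 23 CpG dinucleotides.

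Divergent promoters held more RBPJ summits for their length than single-direction promoters. The sequence meeting the definition came to 3.02 Mb and held 77.2 RBPJ summits per Mb, against 23.8 per Mb in the 68.9 Mb near TSS on 1 strand, a ratio of 3.24 (95% exact Clopper-Pearson interval of the split, 2.81 to 3.71). Any base of a divergent promoter lies near at least 2 TSS, so the ratio is not one per TSS. It was 2.58 with the TSS of transcripts tagged basic and 2.04 with 1 canonical TSS per gene. Of 1707 separate stretches that met the definition, 194 held an RBPJ summit, or 11.4%. The 2 peaks on either side of the limit were HES4/ISG15, whose farther TSS was 986 bp from the summit (fold 15.6), and C19orf73/PPFIA3, at 1005 bp (fold 4.51).

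Of the 367 promoter peaks in the L3MBTL3 list, 19 lay at divergent promoters (5.18%, 3.34 to 7.94%), and the summit density there was 1.25 times that at single-direction promoters (0.741 to 1.98). These values are set beside those of RBPJ as a description, with no test, since the lists share loci and divergent position is the definition of the class.

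More RBPJ summits lay between the 2 TSS than in any other place. The minus-strand TSS was to the left of the plus-strand TSS (head to head) at 204 of the 233 peaks, with a median gap of 226.5 bp (interquartile range 128 to 372 bp), from 9 bp at IDE/KIF11 to 1195 bp at OSGEP/APEX1. The gap depends on which starts are used: the nearest TSS of each strand gave these values, while by canonical starts 223 of 232 peaks were head to head with a median gap of 502 bp and 139 summits lay between. By the canonical APEX1 start, the summit at OSGEP/APEX1 was inside APEX1. IDE encodes a protease that degrades insulin and KIF11 a mitotic kinesin. OSGEP encodes a tRNA-modifying enzyme and APEX1 the main abasic-site endonuclease of base excision repair. At the other 29 peaks the starts overlapped, as at NKIRAS1/NR1D2, where NR1D2 encodes a nuclear receptor of the circadian clock. The summit was between the TSS at 129 peaks (55.4%, 48.9 to 61.6%), inside the minus-strand gene at 38 and inside the plus-strand gene at 37. Of the bases that met the definition at the stretches with a summit, 20.1% lay between the TSS, counted equally whatever their distance from a TSS. The definition limits where a summit can lie, so these shares are a description with no test.

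**Figure D1:**
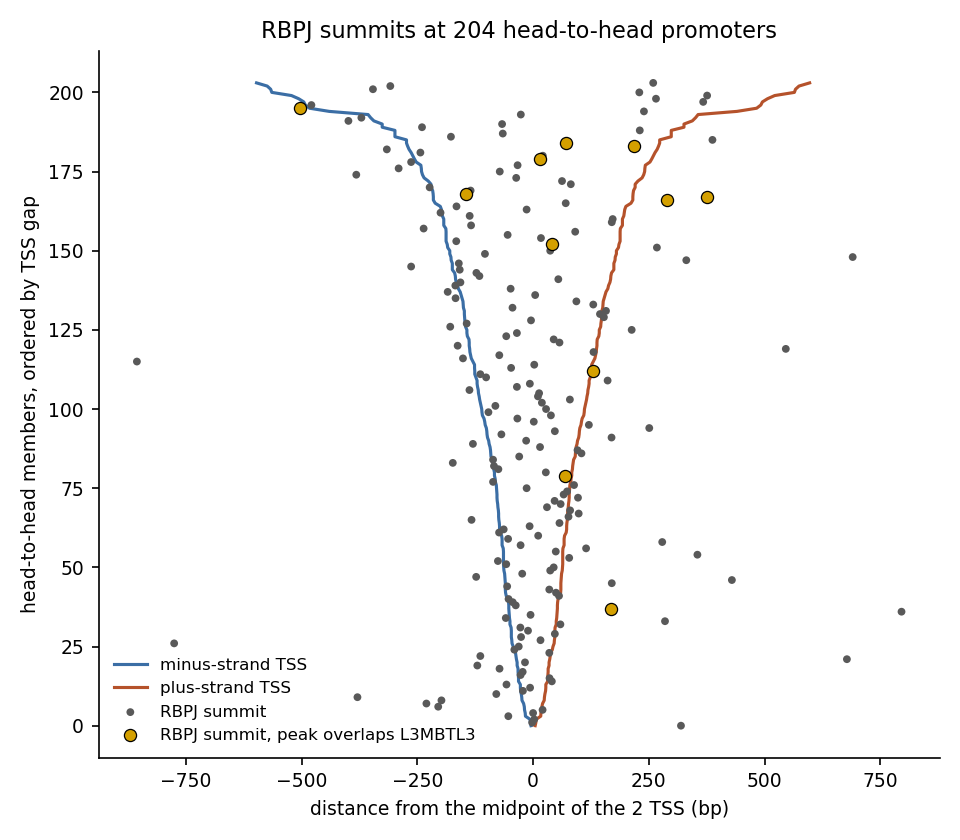
Each point is the RBPJ summit of 1 of the 204 head-to-head divergent peaks, placed by its distance in bp from the midpoint of its 2 TSS (x axis), with peaks ordered by the gap between the TSS (y axis). The lines are the minus-strand and plus-strand TSS, gold points are peaks that overlap an L3MBTL3 peak, and 129 summits lie between the lines.

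**Figure D2:**
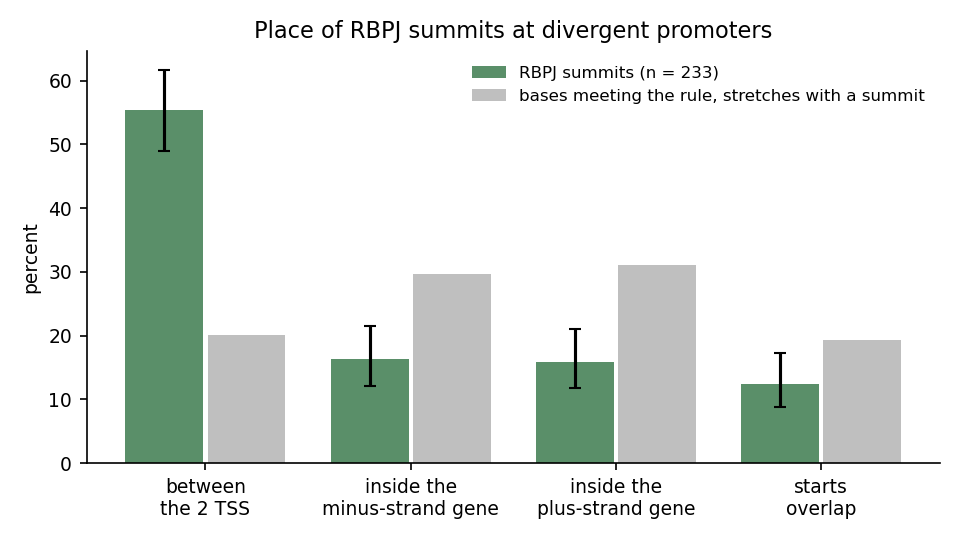
Percent of the 233 RBPJ summits in each place relative to the 2 TSS (green, error bars are 95% Wilson intervals) beside the percent of all bases that met the definition at stretches with a summit (grey). Between the TSS the shares were 55.4% and 20.1%.

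Within the gap the summits were spread. Of the 129, 70 were nearer the minus-strand TSS, 58 nearer the plus-strand TSS and 1 at the midpoint, and 58 (45.0%, 36.6 to 53.6%) were in the middle 50% of the gap. The nearest TSS was a median of 53 bp from the summit (15 to 121 bp) and the farther one 224 bp (129 to 365 bp). Single-direction summits were a median of 108 bp from their nearest TSS (35.5 to 233 bp), and 66.2% (63.8 to 68.4%) lay upstream of it. A peak with TSS on both strands is closer to its nearest one by construction, so the distances are not compared further. By the annotation, 128 divergent summits fell in an exon of some transcript, 57 in an intron and 48 between genes.

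The annotation of starts matters for membership. With basic transcripts only, 209 of the 233 peaks were still divergent, and with canonical starts 152 were. Of the 12 strongest, 5 were still divergent with canonical starts: PIGY/HERC3, CCDC96/TADA2B, TPMT/KDM1B, SIAE/SPA17 and OSGEP/APEX1. At HES4/ISG15 the canonical ISG15 start was 13345 bp from the summit, and at TMX3/CCDC102B the canonical CCDC102B start was 82819 bp away. For URGCP/UBE2D4 the canonical URGCP start was 20035 bp away. Neither TMX3/CCDC102B nor URGCP/UBE2D4 was divergent with basic transcripts. Of the stretches shown above, SLBP/TACC3 was not divergent with basic or canonical starts, the canonical TACC3 start being 8832 bp away. MAP4K1/EIF3K was not divergent with canonical starts, the canonical MAP4K1 start being 1076 bp away. The single-direction class was not free of opposite transcription either. With all annotated transcripts of all genes, 31.3% of its peaks had an opposite-strand TSS within 1000 bp. In 28.4% (26.2 to 30.6%) of its peaks there was one of a long non-coding RNA.

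The fold enrichment of divergent peaks had nearly the same median as that of single-direction peaks. Fold enrichment at the summit, the authors' ratio over local background, had a median of 5.05 (interquartile range 4.36 to 5.62, range 3.16 to 15.6) at divergent and 5.08 (4.52 to 5.71, range 2.77 to 12.4) at single-direction peaks. Among all promoter peaks, 48.4% were above the median of the whole RBPJ list. Of the divergent peaks 108 were (46.4%, 40.1 to 52.8%), against 48.7% (46.3 to 51.1%) of single-direction peaks, an odds ratio of 0.910 (0.692 to 1.20, Fisher's exact test, adjusted p = 0.786 over 29 tests). A difference of this size was not detectable with these numbers, and the interval holds odds ratios on both sides of 1.

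**Figure D3:**
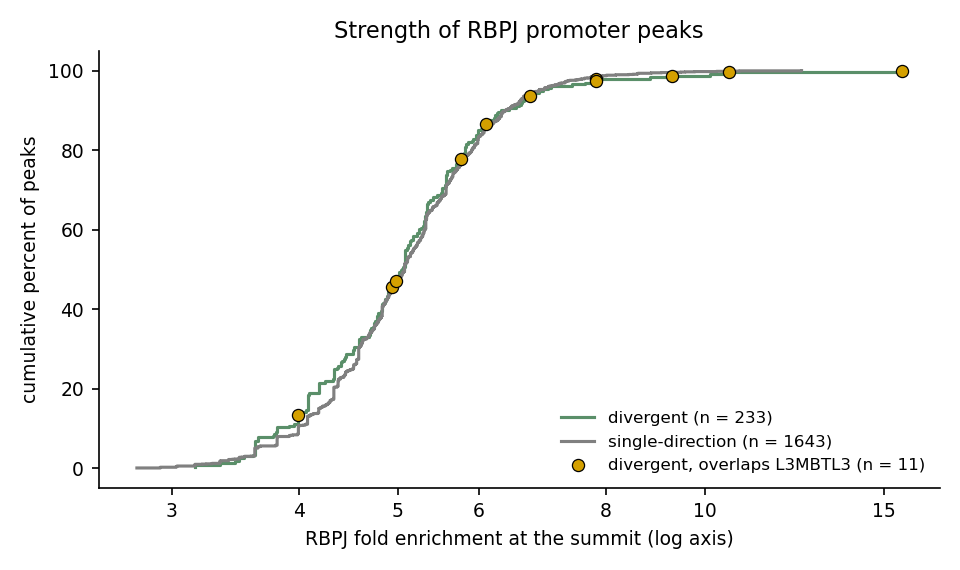
Cumulative percent of peaks (y axis) by RBPJ fold enrichment at the summit (x axis, log scale) for 233 divergent and 1643 single-direction peaks, with gold points for the 11 divergent peaks that overlap an L3MBTL3 peak. The curves have medians of 5.05 and 5.08, and the gold points run from 4.0 to 15.6.

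The strongest divergent peak was at HES4/ISG15. HES4 is a Notch target that encodes a repressor of the HES family, and ISG15 encodes a ubiquitin-like modifier induced by interferon. This peak (chr1:935342-935715) had a fold of 15.6 and a -log10 q of 38.9, with the summit in an exon. By the start nearest to it the summit was inside HES4, and by the canonical HES4 start it was 55 bp upstream. The TSS of ISG15 was 986 bp away. The next, TMX3/CCDC102B (chr18:66382297-66382537), had a fold of 10.6, with the summit between the TSS, 153 bp from that of TMX3, which encodes a disulfide isomerase of the endoplasmic reticulum, and 14 bp from that of CCDC102B. Both had the high-affinity word and an L3MBTL3 peak.

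PIGY/HERC3 had a fold of 10.1 and no L3MBTL3 peak, and its high-affinity word lay 89 bp from the summit, inside HERC3. PIGY acts in the first step of glycosylphosphatidylinositol anchor synthesis, and HERC3 encodes a ubiquitin ligase. Its summit was 17 bp from each TSS, at the midpoint of a gap of 34 bp. URGCP/UBE2D4 (fold 9.29), where UBE2D4 encodes a ubiquitin-conjugating enzyme, had an L3MBTL3 peak and the core word but no high-affinity word. MAP4K1/EIF3K (fold 8.83), with a kinase of blood cell signalling and a subunit of a translation initiation factor, had neither the core word nor an L3MBTL3 peak. The last 4 of the 12 were NKIRAS1/NR1D2 (fold 7.42), SIAE/SPA17 (fold 7.07), OSGEP/APEX1 (fold 7.02) and SCARB2/FAM47E (fold 6.95), where SCARB2 encodes a lysosomal membrane protein. Of the 12 strongest peaks, with folds of 6.95 to 15.6, 5 overlapped an L3MBTL3 peak and 5 had a high-affinity word. The core was in 8, and 7 had the summit between the TSS. Among all 233 divergent peaks these 4 counts were 11, 15, 61 and 129. With a fold of at least 7, L3MBTL3 peaks overlapped 5 of 11 divergent and 12 of 70 single-direction peaks. The high-affinity word was in 5 and 19 of these. The 12 were ranked by fold, and all these counts are given with no test.

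L3MBTL3 peaks overlapped 11 divergent peaks, at 9 gene pairs. Of all promoter peaks, 5.65% overlapped an L3MBTL3 peak by at least 1 bp. The share was 4.72% (2.66 to 8.25%) of divergent and 5.78% (4.75 to 7.02%) of single-direction peaks, with an odds ratio of 0.807 (0.426 to 1.53, Fisher's exact test, adjusted p = 0.821). The interval of the odds ratio leaves room for a lower as well as a higher share. A further 9 divergent peaks had an L3MBTL3 summit within 1000 bp without overlap, among them a further peak each at TPMT/KDM1B, SLBP/TACC3, CEP19/PIGX and DST/BEND6.

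In these 11 peaks the RBPJ and L3MBTL3 summits were a median of 37 bp apart (4 to 100 bp). Overlap of the peaks limits how far apart the summits can lie. The median RBPJ fold of the 11 was 6.74, against 5.02 in the 222 divergent peaks without L3MBTL3, and single-direction peaks had 5.56 with and 5.05 without. Median peak width was 228 bp with and 95 bp without at divergent peaks, and 121 and 90 bp at single-direction peaks. Whether width bears on the overlap was not tested. At HES4/ISG15 the RBPJ fold of 15.6 stood beside an L3MBTL3 fold of 6.67. TMX3/CCDC102B had an L3MBTL3 fold of 6.43, and URGCP/UBE2D4 one of 7.13. The L3MBTL3 list had a median of 5.57, so these 3 were above it. CCDC96/TADA2B, where TADA2B encodes an adaptor of histone acetyltransferase complexes, had an RBPJ fold of 7.83 and an L3MBTL3 fold of 5.42. At TPMT/KDM1B the RBPJ fold was 7.82 and the L3MBTL3 fold 5.96. KDM1B encodes a histone demethylase related to KDM1A, and TPMT the enzyme that methylates thiopurine drugs. SLBP/TACC3 had 6.74 and 5.6. SLBP binds the stem-loop of histone mRNA and TACC3 stabilises spindle microtubules.

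CEP19/PIGX and DST/BEND6 had 2 shared peaks each. At CEP19/PIGX, with a protein of the centrosome and one of anchor synthesis, the RBPJ folds were 6.10 and 4.0 and the L3MBTL3 folds 6.56 and 8.20, so the order of the 2 peaks differed between the lists. At DST/BEND6 the RBPJ folds were 5.77 and 4.93 and the L3MBTL3 folds 4.30 and 4.26, both below the L3MBTL3 median. BEND6 encodes a protein known to bind RBPJ and repress Notch targets, and DST the cytoskeletal linker dystonin. The last, CCNE2/NDUFAF6, with a cyclin of S phase entry and an assembly factor of respiratory complex I, had folds of 4.98 and 5.19. Of the 11 peaks 2 had the high-affinity word, 6 the core and 0 the ZNF143 word. Among all 233 divergent peaks 15, 61 and 14 had them, and the difference was not tested. With canonical starts 6 of the 11 were still divergent, against 152 of the 233.

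Neither RBPJ word passed the test between divergent and single-direction peaks. All words were sought on both strands within 100 bp of the summit. A high-affinity word was present in 5.6% of all promoter peaks, 6.44% (3.94 to 10.3%) of divergent and 5.48% (4.48 to 6.69%) of single-direction peaks (odds ratio 1.19, 0.675 to 2.09, Fisher's exact test, adjusted p = 0.786). TGGGAA, the core, was found in 21.5% of promoter peaks, 26.2% (21 to 32.2%) of divergent and 20.8% (18.9 to 22.8%) of single-direction peaks (odds ratio 1.35, 0.984 to 1.85, p = 0.0731 and adjusted p = 0.265 by Fisher's exact test). The odds ratio of the core was above 1 under all 13 alternative settings (1.06 to 1.44), with an unadjusted p under 0.05 in 3 of them and an adjusted p under 0.05 in 0, the smallest being 0.134. For reference, a high-affinity word was in 1.72% of windows centred 2000 bp to either side of divergent summits and in 1.46% of windows of the same length on all 78394 protein-coding TSS. The core was in 18.9% and 14.8% of these.

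Divergent peaks with a high-affinity word had a median fold of 5.34 and those without one 5.03. NGLY1/OXSM (fold 7.62), with the cytosolic enzyme that removes N-glycans and a condensing enzyme of mitochondrial fatty acid synthesis, and OSGEP/APEX1 (fold 7.02) were the next of these after the 3 peaks already described. RECQL5/SAP30BP (fold 5.53), with a DNA helicase, and RETREG3/TUBG1 (fold 5.32), where TUBG1 encodes gamma-tubulin, followed, with FADS1/FADS2 (fold 5.58), a pair of fatty acid desaturases whose starts overlap. TMED5/CCDC18 (fold 5.34) and EIF2AK3/RPIA (fold 5.02) had the word 88 and 71 bp from the summit, outside the called peaks. EIF2AK3 encodes PERK, a kinase of the unfolded protein response.

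The ZNF143 word was more frequent at divergent peaks. ACTACAA was in 1.97% of all promoter peaks, in 14 of 233 divergent peaks (6.01%, 3.61 to 9.83%) and in 23 of 1643 single-direction peaks (1.40%, 0.935 to 2.09%), an odds ratio of 4.50 (2.28 to 8.88, Fisher's exact test, p = 6.19e-05, adjusted p = 0.0018). Adjusted over the 16 class tests alone, without the comparisons added later, p was 9.91e-04 by the same exact test. With canonical starts the odds ratio was 3.43 and the adjusted p was 0.0523, by the same exact test. Of the windows 2000 bp away 1.72% held it, and of all TSS windows 1.70%. With a -log10 q of at least 5, 3 of 47 divergent peaks held it, and the odds ratio was 2.97 with an adjusted p of 0.362 by the same exact test. The 14 peaks had folds of 3.81 to 6.32, with a median of 5.38, and the summit was between the TSS in 11 of them.

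The genes at these peaks had varied roles. TRAK2/STRADB (fold 6.32) pairs an adaptor of mitochondrial transport with a pseudokinase that activates LKB1. CENPT/NUTF2 (fold 5.99) pairs a kinetochore protein with the carrier that imports Ran into the nucleus. TMEM127/CIAO1 (fold 5.83) includes a component of cytosolic iron-sulfur cluster assembly, and SIRT2/NFKBIB (fold 5.83) a deacetylase and an inhibitor of NF-kB. CCND3/TAF8 (fold 4.73) pairs cyclin D3 with a subunit of the general factor TFIID. TOP3A/SMCR8 (fold 3.81) includes a topoisomerase. DCAKD/NMT1 had the word at 2 of its 3 peaks.

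The other 10 words did not pass between the classes. ETS CCGGAAG was in 13.7% of divergent and 11% of single-direction peaks (adjusted p = 0.513, Fisher's exact test). The 4 NFY words were together in 14.6% and 12.7%, that is CCAATCA, its variant CCAATCG, then CCAATGA and lastly CCAATGG, and the GC box GGGGCGGGG in 29.2% and 29.0%. NRF1 GCGCATGCG was in 3.00% and 2.13%, YY1 AAGATGGCG in 2.58% and 1.77%, the E-box CACGTG in 9.87% and 7.43%, and TEAD GGAATG in 9.44% and 7.18%. CRE TGACGTCA was in 1.29% and 2.13%, the AP-1 words TGACTCA and TGAGTCA in 2.58% and 3.96%, and TATAAA in 1.72% and 1.64%. The E-box can overlap a high-affinity RBPJ word. Within 250 bp of the summit, ETS CCGGAAG was in 72 of 233 divergent (30.9%) and 308 of 1643 single-direction peaks (18.7%), an odds ratio of 1.94 with an adjusted p of 5.44e-04 by Fisher's exact test.

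**Figure D4:**
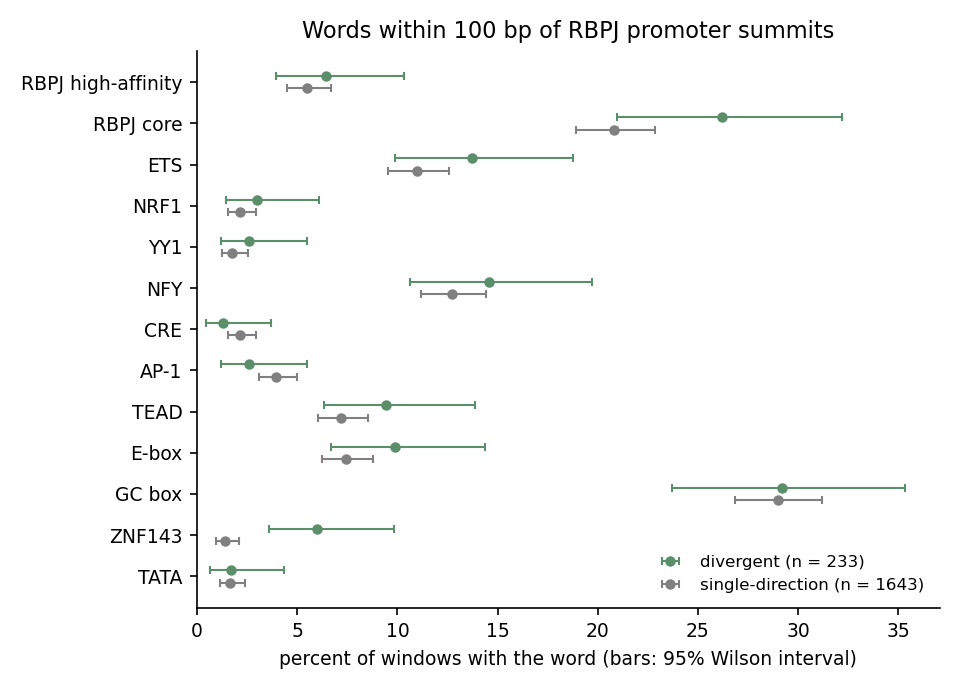
Percent of RBPJ promoter summits (x axis) with each word or set of words within 100 bp (y axis) at 233 divergent (green) and 1643 single-direction (grey) peaks, with 95% Wilson intervals. The intervals of the ZNF143 word, 6.01% and 1.40%, do not overlap.

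Nearly all divergent peaks were CpG-rich. The observed over expected CpG ratio within 500 bp of the summit was above 0.6 in 94.5% of promoter peaks, 97.4% (94.5 to 98.8%) of divergent and 94.1% (92.9 to 95.1%) of single-direction peaks. The odds ratio was 2.37 (1.03 to 5.48, Fisher's exact test, p = 0.0439), which did not pass adjustment (adjusted p = 0.182). Median GC content was 65.1% and 66.7%, and the median CpG ratio 0.817 and 0.825.

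A comparison within divergent promoters was added after the results above had been seen. All 943 head-to-head pairs of canonical TSS with a gap of at most 1000 bp were divided into 123 (13.0%, 11 to 15.3%) with an RBPJ summit within 1000 bp of both TSS and 820 without, and words were sought in 201 bp windows at the midpoint of the gap. The ZNF143 word was in 8 of 123 bound (6.50%, 3.33 to 12.3%) and 41 of 820 unbound pairs (5.0%, 3.71 to 6.71%), an odds ratio of 1.32 (0.604 to 2.89, Fisher's exact test, adjusted p = 0.786). A difference between bound and unbound pairs was thus not detectable for this word, and both shares were above the 1.70% of all TSS windows. Those windows are centred on all protein-coding starts and not on gap midpoints of canonical pairs, so the 2 kinds of window are unlike.

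The GC box was in 26.8% (19.8 to 35.3%) of bound and 15.4% (13.1 to 18.0%) of unbound pairs (odds ratio 2.02, 1.30 to 3.14, Fisher's exact test, adjusted p = 0.0399). Bound pairs also had a higher median GC content, 65.5% against 62.3%, and among pairs with a GC content of 60 to 70% the odds ratio was 1.58 with an adjusted p of 0.406 by the same exact test. It also missed 0.05 in windows of 50 bp to each side (1.54) and with peaks at a -log10 q of 5 or more (2.54). The RBPJ core was in 25.2% (18.4 to 33.5%) and 14.8% (12.5 to 17.3%), an odds ratio of 1.95 (1.24 to 3.05, Fisher's exact test, p = 0.00541). Its adjusted p was 0.0523, so it did not pass. It passed with peaks at a -log10 q of 5 or more (odds ratio 3.91, adjusted p = 0.0266) and without chromosome 6 (2.20, adjusted p = 0.0251), by the same exact test. The high-affinity word was in 4 of 123 and 7 of 820 pairs (odds ratio 3.90, 1.13 to 13.5, adjusted p = 0.182 by Fisher's exact test).

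**Figure D5:**
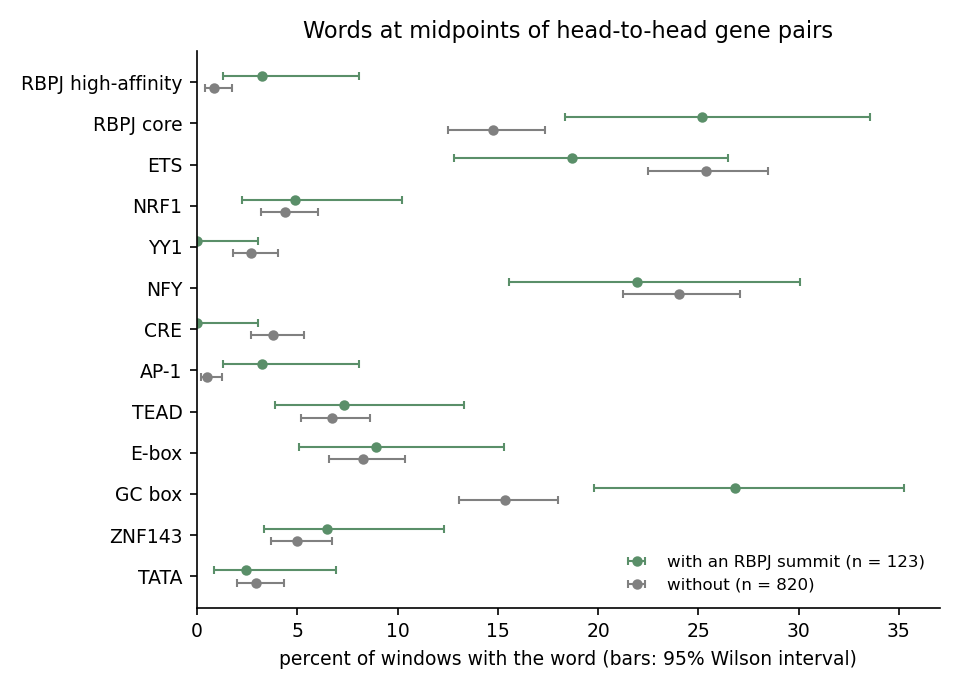
Percent of head-to-head gene pairs (x axis) with each word in the 201 bp at the midpoint of the gap (y axis) for 123 pairs with an RBPJ summit (green) and 820 without (grey), with 95% Wilson intervals. The GC box was in 26.8% and 15.4%, and the ZNF143 word in 6.50% and 5.0%.

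Among gene families, the shares with RBPJ were read against all genes at divergent promoters: of 3296, 394 had an RBPJ summit there, or 12%. Of 50 proteasome genes 15 were at divergent promoters and 5 of these had a peak. PSMB9, a subunit of the immunoproteasome, is paired with TAP1, a transporter of antigen peptides, and this promoter had 2 peaks (folds 5.09 and 4.06). PSME2, PSME3 and PSME4 encode activators of the proteasome and had folds of 5.06 at PSME2/RNF31, 5.91 at BECN1/PSME3 and 4.69 at PSME4/ACYP2. PSMA7, a core subunit, had 4.43 at PSMA7/SS18L1. All 6 peaks lacked an overlapping L3MBTL3 peak, as did 222 of all 233 divergent peaks.

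Of 64 genes listed for the Notch pathway 15 were at divergent promoters and 4 had a peak: HES4 and KDM1B, described above, RITA1 and POFUT1. RITA1 encodes a protein that exports RBPJ from the nucleus, and DDX54/RITA1 had 3 peaks (folds 5.79, 5.08 and 4.0). POFUT1 adds the O-fucose that Notch receptors need, and PLAGL2/POFUT1 had a fold of 4.41. Cytosolic ribosomal protein genes had 4 of 25 and chaperones 5 of 29, the latter including HSPA1L/HSPA1A (fold 3.54) and DNAJB1/TECR (fold 4.18). DNA replication genes had 3 of 12, MCM7 (fold 5.08), MCM8 (fold 5.80) and POLD3 (fold 5.70).

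Mitochondrial ribosomal protein genes had 3 of 33, complex I genes 2 of 26, aminoacyl-tRNA synthetases 1 of 12, DNA repair genes 2 of 23, replication-dependent histones 2 of 27 and zinc finger ZNF genes 4 of 66. Each family held few genes at divergent promoters, and the 2 genes of a pair share 1 peak, so the shares are given with no test.

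Several pairs had more than 1 peak. Of the 193 pairs, 30 had at least 2 and 9 at least 3. OARD1/NFYA had 4, with folds of 3.46 to 4.02 and summits over 1005 bp. NFYA encodes the subunit of NFY that recognises CCAAT. PPP1R10/MRPS18B and ZBTB25/ZBTB1 had 3 each. Chromosome 6 held 36 of the 233 divergent and 189 of the 1643 single-direction peaks.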

How the data were processed

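RBPJ and L3MBTL3 were profiled by ChIP-seq in MDA-MB-231 cells. Per the labels' protocols, libraries were read for 50 cycles from one end, adaptors were trimmed with Trimmomatic and reads were aligned to hg19 with BWA 0.7.15. The submitters' processing notes name MACS2 as the peak caller. Which version, cutoffs and control it ran with is not given in the sources used here. The deposited columns hold each summit, a fold enrichment (the authors' ratio over local background), a -log10 p and -log10 q, and a score. The deposited score equals 10 times the -log10 q, truncated, for all 2926 RBPJ peaks. The lists give no read counts, so no error can be attached to a fold.

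Coordinates are 1-based in hg19. Starts are those of protein-coding transcripts in GENCODE 44 lifted to that build (19756 genes, 78399 TSS), and sequence is that of the build. Peak classes were compared with two-sided Fisher's exact tests (scipy 1.17.1). Benjamini-Hochberg adjustment ran over 29 tests: 16 between the classes and 13 between bound and unbound gene pairs, the latter added after results had been seen. A test of the divergent share between the lists was run and dropped, since its outcome is the definition of the class and it was picked from its values. With it in the family, the adjusted p was 0.0406 in place of 0.0523 for the RBPJ core in bound pairs, and 0.0396 in place of 0.0523 for the ZNF143 word with canonical starts (Fisher's exact test). Intervals are 95% Wilson for shares and 95% Woolf for odds ratios, and cover counting error only. The procedure was tested on simulated data. The peaks, words and gene lists were chosen with earlier results of these data known. Named are the 12 strongest divergent peaks, all with L3MBTL3 overlap, the 10 strongest with a high-affinity word and those of Notch genes; other named pairs illustrate a count and were picked afterwards. Alternatives covered TSS windows and transcript sets, a -log10 q of at least 5, word and CpG windows, 1 peak per promoter and chromosome 6 left out.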

Additional observations from a re-analysis of the deposited data

How the results depend on the processing

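The ZNF143 odds ratio was above 1 in all 13 settings (2.97 to 6.09) and passed in 11, all but canonical starts (3.43) and a -log10 q of at least 5 (2.97). The divergent share of promoter peaks was 10.8% with a 500 bp window and 8.92% with canonical starts, and the density ratio 2.58 with basic and 2.04 with canonical starts. The odds ratio of the high-affinity word turned to 0.996 with canonical starts and 0.885 at that q, and that of L3MBTL3 overlap to 1.23 at that q; these did not pass before or after. The CpG-rich odds ratio varied most: it was 3.12 and passed without single-direction peaks that have an opposite-strand TSS, and did not pass at 4.99 with a 500 bp window, 7.01 at that q, 1.18 with canonical starts or 0.906 with a ratio of 0.75. Of the words beside those of RBPJ, 0 passed with canonical starts, 0 at that q and 2 within 250 bp (ZNF143 and ETS). Between bound and unbound pairs, the GC box did not pass with 50 bp windows (1.54), at that q (2.54) or at 60 to 70% GC (1.58). The core passed at that q (3.91) and without chromosome 6 (2.20), and did not pass in windows of 50 bp (1.35) or 250 bp (1.53). It also did not pass with a gap of at most 500 bp (1.64) or at 60 to 70% GC (2.16). Fewer peaks are tested at that q; the other causes were not tested. No paired analysis was possible because each antibody has 1 library.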
